A study of Mus musculus with 6 samples.

Results

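Zbtb16 and Trav11, 2 of the 32285 features of the deposited matrices, were chosen by symbol as genes of invariant natural killer T (iNKT) cells. They were followed in 48145 αβ T cells of 6 single-cell RNA sequencing libraries from mouse kidney. All cells came from wild-type male C57BL/6J mice aged 7 to 8 weeks and had been sorted as CD45+ cells that bound an antibody to the β chain of the αβ receptor. Control kidneys were normal, and in the ischemia-reperfusion (IR) group both renal pedicles had been clamped for 30 min, with serum creatinine measured at 24 h. Each condition gave 1 library of CD4, 1 of CD8 and 1 of CD4-CD8- (double negative, DN) T cells. How many mice went into a library is not given in the sources used here.

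iNKT cells are T cells with a nearly fixed receptor, in which the α chain joins the variable segment Trav11 to the joining segment Traj18. In mice this chain pairs mostly with β chains that use Trbv13 segments, Trbv29 or Trbv1. The receptor sees lipids held by CD1d, a molecule related to the classical antigen-presenting molecules. Zbtb16 encodes PLZF, a zinc finger transcription factor of the BTB family that gives these cells their innate-like, rapid cytokine response. PLZF is not private to them: mucosal-associated invariant T (MAIT) cells, some γδ T cells and the precursors of innate lymphoid cells also make it.

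Every group is a single library, so differences have no replicate check, and neither tests nor p-values are given. Levels are CPM, the counts of a gene scaled to the same total in each library, of unique molecular identifiers (UMIs, counted molecules), and all intervals are 95% intervals that cover counting error only, not differences between mice, sorts or runs. Kept libraries held 4115 to 10162 cells, with a median of 6626 to 8362 UMIs per cell in the control group and 1450 to 2352 in the IR group. According to the file headers, Cell Ranger 5.0.1 had counted the control and 6.0.1 the IR libraries, so condition, depth and software version cannot be told apart. A Cd3d, Cd3e or Cd3g UMI, a sign of T cells with either receptor type, was found in 90.6% to 99.2% of kept cells. Barcodes with markers of other cell types and no Cd3 UMI had been left out first. As to the αβ label, Trdc, the constant gene of the δ chain, was far below Trac in every class of cells examined. Between 134 and 189 barcodes per library were also found in another library of the same condition.

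Zbtb16 (ENSMUSG00000066687) spans 48654297 to 48836222 on the minus strand of chromosome 9 in GRCm38 (mm10). Of this span 5283 bases are exonic and 176643 intronic, and no other counted feature overlaps it. Trav11 (ENSMUSG00000096615) lies at 53519303 to 53519859 on the plus strand of chromosome 14, with 2 exons that make a transcript of 343 bases. A copy of it, Trav11d, lies upstream on the same chromosome at 52824357 to 52824912. The last exons of the pair are shown because they decide which reads can be given to Trav11. They come from GENCODE M21 transcripts (GRCm38) and run 5′ to 3′, with the capital marking the final base that Trav11d lacks. The sole Traj18 exon, to which Trav11 is joined in iNKT cells, follows for comparison. Trav11 exon 2 is chr14:53519569-53519859, Trav11d exon 2 is chr14:52824623-52824912 and Traj18 is chr14:54200777-54200842, all on the plus strand.
Trav11: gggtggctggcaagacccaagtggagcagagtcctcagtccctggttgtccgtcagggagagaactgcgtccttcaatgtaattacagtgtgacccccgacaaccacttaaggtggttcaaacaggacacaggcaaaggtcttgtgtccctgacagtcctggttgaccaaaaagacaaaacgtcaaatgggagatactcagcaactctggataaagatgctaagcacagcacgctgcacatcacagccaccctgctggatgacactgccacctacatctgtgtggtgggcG
Trav11d: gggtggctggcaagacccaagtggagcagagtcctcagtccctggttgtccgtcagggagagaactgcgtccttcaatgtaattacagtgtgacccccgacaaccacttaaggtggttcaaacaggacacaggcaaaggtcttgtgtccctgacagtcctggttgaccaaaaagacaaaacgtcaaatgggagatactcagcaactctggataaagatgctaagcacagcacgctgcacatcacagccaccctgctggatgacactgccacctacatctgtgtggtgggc
Traj18: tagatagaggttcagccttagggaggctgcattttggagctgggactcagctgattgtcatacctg

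The exons of the pair are otherwise identical. Of the 253 stretches of 91 bases in the Trav11 transcript, 91 being the length of the cDNA read, 252 also occur in Trav11d, whereas the 3 Trbv13 segments share 0 such stretches with each other. A read of that length within the segment therefore has 2 matching places. Beyond a mention of default settings in the study's methods, how the counting treated such reads is not given in the sources used here, so Trav11 values are uncertain and a missing UMI does not mark a cell as lacking the segment. Trav11d received 8 UMIs in 8 control DN cells and 0 in the other libraries.

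Zbtb16 was a gene of CD4 and DN cells and was nearly missing from CD8 cells, in both conditions. It was at 258 CPM (254 to 262) in control DN cells and at 202 CPM (199 to 206) in control CD4 cells. In the IR group it was at 125 CPM (115 to 136) in DN cells and at 76.8 CPM (72.5 to 81.3) in CD4 cells. CD8 cells held 1.95 CPM (1.57 to 2.40) in the control group and 1.53 CPM (0.733 to 2.81) in the IR group. The intervals of the 4 CD4 and DN libraries did not overlap each other, and those of the CD8 libraries did.

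Trav11 followed the same split between subsets at a much lower count. Its level was 6.03 CPM (3.97 to 8.77) in IR DN cells from 27 UMIs and 4.82 CPM (4.28 to 5.40) in control DN cells from 293 UMIs. It was 3.92 CPM (3.39 to 4.50) in control CD4 cells from 198 UMIs and 2.44 CPM (1.73 to 3.35) in IR CD4 cells from 38 UMIs. Control CD8 cells had 5 UMIs (0.110 CPM, 0.0356 to 0.256), and IR CD8 cells had 0. In the latter, 0 of 6405 cells allows a share of up to 0.0468% of cells with a UMI, by the floor of 3 counts. Neighbours in this order overlapped in their intervals except for IR CD4 below control CD4 and the CD8 libraries below all others.

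**Figure D1:**
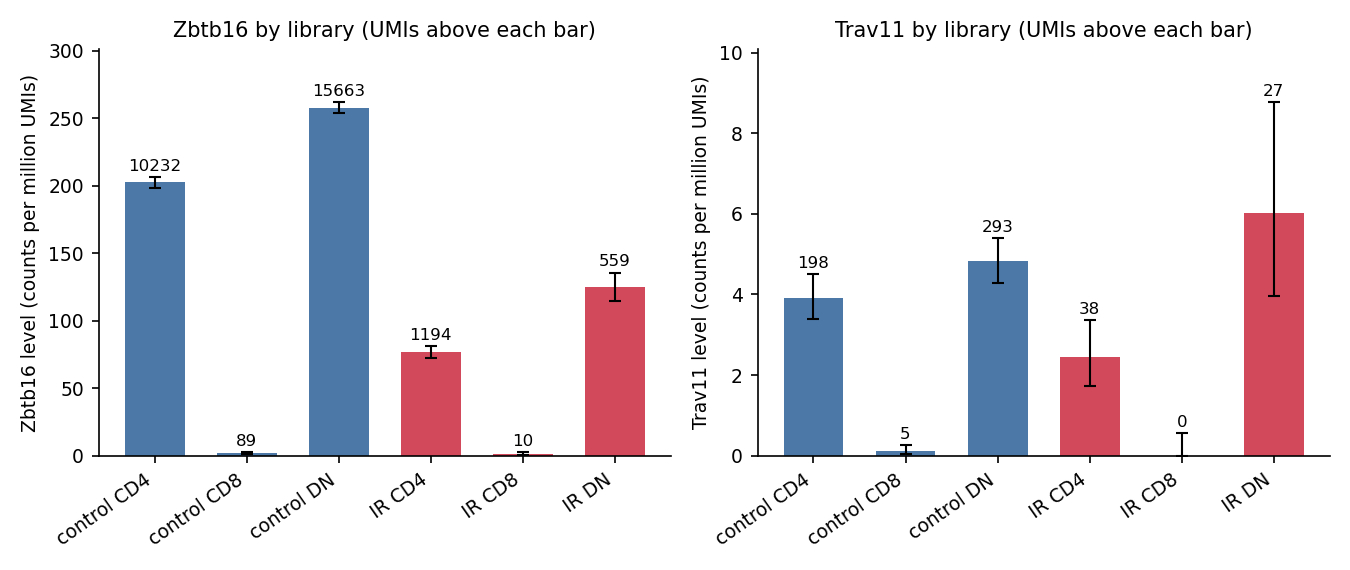
Level of Zbtb16 (left) and Trav11 (right) in each library, in CPM on linear axes that start at 0. Bars are control (blue) and IR (red) libraries, numbers above them are UMIs, and error bars are exact 95% Poisson intervals. Zbtb16 reached 258 CPM in control DN and stayed under 2 CPM in the CD8 libraries, and Trav11 stayed under 10 CPM in every library.

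Between sorted subsets, the level of Zbtb16 in control DN cells was 132-fold that in control CD8 cells (log2 7.04, 6.74 to 7.36), and in control CD4 cells 104-fold (log2 6.70, 6.39 to 7.01). In the control group 6.61% of genes at 10 CPM or more differed at least 2-fold between DN and CD8 cells and 4.38% between CD4 and CD8 cells. In the IR group the ratios were 81.6-fold for DN over CD8 (log2 6.35, 5.46 to 7.42) and 50.3-fold for CD4 over CD8 (log2 5.65, 4.77 to 6.72), where 11.3% and 7.84% of genes differed at least 2-fold. The DN level was 1.27-fold the CD4 level in the control group (log2 0.35, 0.31 to 0.38) and 1.62-fold in the IR group (log2 0.70, 0.55 to 0.85). Neither ratio reached 2-fold, which 2.8% and 8.06% of genes did. Summed over the 7 of 10 γδ T cell genes found in the files, DN cells were highest at 528 CPM in the control and 337 CPM in the IR group, followed by CD4 cells at 136 and 98.9 CPM and CD8 cells at 39.5 and 22.6 CPM, an order like that of Zbtb16. Nearly all of this was γ chain RNA. Trdc, the δ chain gene, was at 3.21 CPM in CD4 and 2.52 CPM in DN cells of the control group. In the IR group it was at 3.67 and 2.01 CPM. Whether γδ T cells bear on the order of Zbtb16 was not tested.

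The few Zbtb16 UMIs of IR CD8 cells need a caution. All 10 came from 8 cells, 6 of these 8 barcodes were also found in another IR library, with 4 matches to a barcode that had a Zbtb16 UMI there. Without the shared barcodes 2 UMIs remained, and without barcodes lacking a Cd3 UMI 2 UMIs remained as well. In the control CD8 library 87 of 89 UMIs remained without shared barcodes. In the CD4 and DN libraries between 7 and 29 Zbtb16 carriers (cells with a UMI of the gene) had shared barcodes.

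Trav11 was too low in every library to reach the 10 CPM needed to be counted as changed. Its level in control cells was 43.9-fold higher in DN than in CD8 (log2 5.46, 4.22 to 7.09) and 35.7-fold higher in CD4 than in CD8 (log2 5.16, 3.91 to 6.80). In IR cells, against a floor of 3 counts for the CD8 library, it was at least 13.1-fold higher in DN and at least 5.33-fold higher in CD4. The DN level was 1.23-fold the CD4 level in the control group (log2 0.30, 0.03 to 0.57) and 2.47-fold in the IR group (log2 1.30, 0.53 to 2.05). The last ratio rests on 27 and 38 UMIs. After thinning to 700 UMIs per cell the control ratio was a log2 of 1.12, from few UMIs.

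Traj18, the joining segment of the same receptor, had the same order of subsets but a smaller split. It was at 46.9, 30.1 and 63.3 CPM in control CD4, CD8 and DN cells and at 27.2, 8.56 and 50.9 CPM in the IR cells. Its 1373 UMIs in control CD8 cells, where Trav11 had 5, show that a Traj18 UMI alone does not mark the Trav11-Traj18 chain. The segments of the MAIT receptor were rare, with 1 to 20 UMIs of Trav1 per library. Traj33 had 478 UMIs in control CD4, 456 in control CD8 and 38 in control DN cells, an order unlike that of Zbtb16.

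The comparison of IR with control addressed how the genes of kidney T cells differ after ischemic injury. Zbtb16 was 2.64-fold lower in IR than in control CD4 cells (log2 -1.40, -1.49 to -1.31) and 2.06-fold lower in IR than in control DN cells (log2 -1.05, -1.17 to -0.92). In CD8 cells the log2 ratio was -0.35 (-1.46 to 0.59). At least 2-fold differences between IR and control were common, at 22.7% of genes in CD4, 25.5% in CD8 and 19.6% in DN cells. The ratio of a gene also moved with its intronic length. The study's methods name default settings of the processing, but whether intronic reads were counted, and alike in both conditions, is not spelled out in the sources used here, so the Zbtb16 level may hold intronic reads in some libraries and not in others. Among genes with introns as long as those of Zbtb16, the median log2 ratio was -1.12 in CD4 cells (453 genes) and -0.72 in DN cells (466 genes), against -0.26 and -0.24 over all genes. Relative to those genes Zbtb16 was lower by a log2 of -0.28 in CD4 and -0.32 in DN cells, neither of which is 2-fold.

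Trav11, whose introns are short, was also lower in IR than in control CD4 cells, but not in DN cells. Its log2 ratio of IR over control was -0.68 in CD4 cells (-1.22 to -0.17) and 0.32 in DN cells (-0.30 to 0.89), and neither could be counted as changed at these levels. Traj18 was lower in IR CD4 cells (log2 -0.79, -0.94 to -0.64) and in IR DN cells (log2 -0.31, -0.51 to -0.12). Relative to genes with introns of similar length, the log2 ratio was -1.16 for Trav11 in CD4 and -0.03 in DN cells, and -1.26 and -0.66 for Traj18, so after this centring both segments were further below their length class in CD4 cells than Zbtb16 was.

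Other genes of the same families gave a mixed picture between IR and control. Of the factors that share the BTB zinc finger architecture with PLZF, 2 of 12 tested were at least 2-fold lower and 0 higher in CD4 cells, and 1 of 12 was lower and 1 higher in DN cells, which is no more than the 22.7% and 19.6% of all genes that differed. Of 16 tested genes of iNKT selection and signalling, 5 were lower and 1 was higher in CD4 cells. In DN cells 4 of the 16 were lower and 1 was higher. Their median log2 ratios were -0.33 and -0.50, beside -0.26 and -0.24 for all genes. Genes known to respond to glucocorticoids, which induce Zbtb16 in several tissues, were mostly higher in the IR group. In each subset 6 of 9 were at least 2-fold higher and 0 lower. Their median log2 ratios were 1.77 in CD4, 1.25 in CD8 and 1.73 in DN cells, beside -0.26, -0.36 and -0.24 for all genes. These ratios were not centred by intronic length. Tsc22d3, which encodes the glucocorticoid-induced leucine zipper, was at 152 CPM in control and 761 CPM in IR CD4 cells. It was at 132 CPM in control and 715 CPM in IR DN cells. Whether these differences bear on Zbtb16 was not tested. Markers of other cells also moved with condition: the 4 erythroid genes summed to 1.16 to 1.28 CPM in the control and 20.1 to 27.6 CPM in the IR libraries, and the 8 myeloid genes to 101 to 109 CPM and 148 to 188 CPM. Of the myeloid genes S100a8 was at 0 in every control library, and the part of such RNA in the ratios was not tested.

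Zbtb16 was spread over many cells rather than over a small set. Without thinning, 5169 of 8908 control DN cells had a Zbtb16 UMI (58.0%, 57.0 to 59.1), as had 2960 of 9248 control CD4 cells (32.0%, 31.1 to 33.0). It was found in 898 of 10162 IR CD4 cells (8.84%), 460 of 4115 IR DN cells (11.2%), 41 of 9307 control CD8 cells (0.441%) and 8 of 6405 IR CD8 cells (0.125%). Control CD8 cells, at a median of 6626 UMIs against 7028 in control CD4 and 8362 in control DN cells, give the share in cells in which the gene is not expected; whether those UMIs are free RNA or a few expressing cells was not tested, and 16 of the 41 carriers held more than 1 UMI. Depth weighed on these shares. After each cell was thinned to 700 UMIs of retained features, the shares were 14.0% (13.3 to 14.7) in control DN and 10.3% (9.67 to 10.9) in control CD4 cells. They were 7.81% (6.96 to 8.72) in IR DN, 4.41% (4.01 to 4.83) in IR CD4, 0.0569% in control CD8 and 0.0732% in IR CD8 cells. Thinning left out 19 to 939 shallow cells per library.

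Carriers differed widely in how many Zbtb16 UMIs they held. In control DN cells 1925 carriers had 1 UMI, 1224 had 2, 1147 had 3 to 4, 662 had 5 to 9 and 211 had 10 or more, with a maximum of 82. In control CD4 cells the same classes held 931, 648, 739, 485 and 157 cells, with a maximum of 50. In the shallower IR libraries, 688 of 898 CD4 carriers and 386 of 460 DN carriers had 1 UMI, and the highest cells had 8 and 6. In control CD8 cells 1 cell reached 12 UMIs and 25 of 41 carriers had 1.

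**Figure D2:**
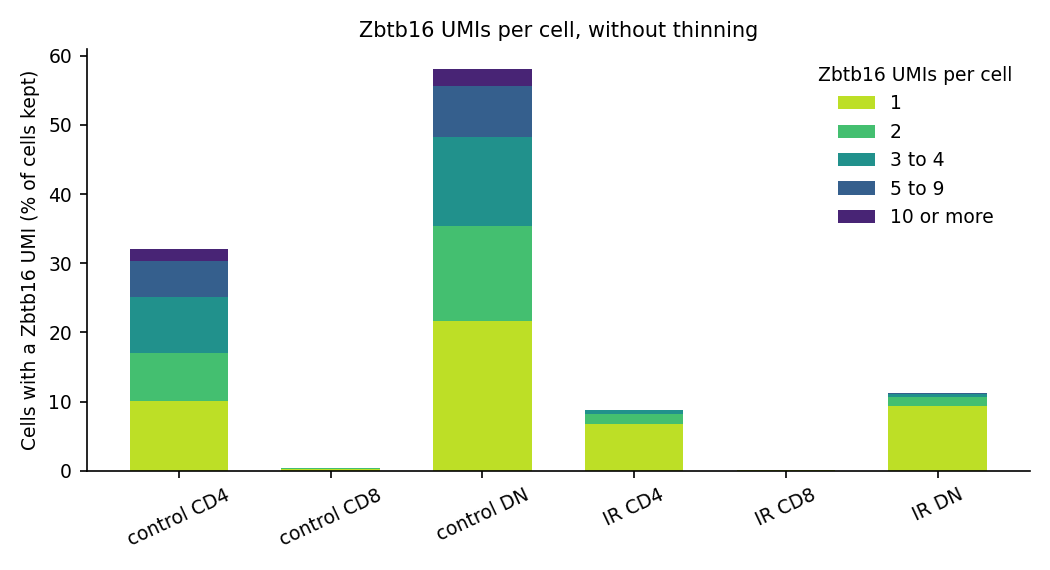
Share of kept cells with a Zbtb16 UMI in each library, without thinning, stacked by the number of Zbtb16 UMIs in the cell (yellow for 1 to dark purple for 10 or more). The stacks reach 58.0% in control DN and 32.0% in control CD4 cells, stay near 10% in IR CD4 and IR DN cells and are under 1% in both CD8 libraries; the IR libraries are shallower.

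Trav11 UMIs were rare in every library: 262 control DN, 175 control CD4, 35 IR CD4, 25 IR DN and 5 control CD8 cells carried the gene, most of them with 1 UMI. This is 2.94% (2.60 to 3.31) of control DN and 1.89% (1.62 to 2.19) of control CD4 cells, and 0.344% of IR CD4 and 0.608% of IR DN cells. Receptor segments were seldom read at all in these libraries. A UMI of any Trav segment was found in 22.0% of control CD4, 28.1% of control CD8, 15.2% of control DN, 11.4% of IR CD4, 9.65% of IR CD8 and 5.37% of IR DN cells. Among all Trav UMIs, Trav11 made up 15.9% (14.2 to 17.6) in control DN cells, where it ranked the highest of 84 segments detected. It made up 10.2% (6.85 to 14.5) in IR DN, 6.15% (5.35 to 7.04) in control CD4, 2.64% (1.87 to 3.60) in IR CD4 and 0.0835% (0.0271 to 0.195) in control CD8 cells. In the IR CD8 library it was 0 of 741 Trav UMIs. Whether other Trav segments have copies that share reads was not examined, so shares and ranks are of counted UMIs only.

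Both genes met in the same cells most clearly in the control CD4 library. There 144 of 175 Trav11 carriers also had a Zbtb16 UMI (82.3%, 75.8 to 87.6), against 31.04% of the cells without Trav11. Cells in which only another Trav segment had been read, at a similar median of 7535.5 UMIs, had Zbtb16 in 307 of 1860 cases (16.5%, 14.8 to 18.3). Of the 11 Trav segments with at least 50 carriers, Trav11 carriers had the highest share with Zbtb16, and Trav16n carriers came next at 22.4% (30 of 134). The median over the 11 segments was 10.5%.

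Seen from the other side, Trav11 was 27.4% (23.9 to 31.2) of the Trav UMIs of Zbtb16 carriers in control CD4 cells and 1.26% (0.870 to 1.77) of those of the other cells. In Zbtb16 carriers it ranked the highest of 73 segments, and in the other cells it ranked 29 of 81. Even so, 144 of the 2960 Zbtb16 carriers (4.87%) had a Trav11 UMI, beside 0.493% of the other cells.

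The overlap in control DN cells was wide but much less selective. A Zbtb16 UMI was found in 172 of 262 Trav11 carriers (65.6%, 59.6 to 71.4), in 57.8% of cells without Trav11 and in 54.9% (51.9 to 57.9) of 1092 cells with another Trav segment only. Trav11 carriers had the highest share among the 4 segments with at least 50 carriers, followed by Trav16n at 57.9% (73 of 126). Trav11 made up 18.3% (16.0 to 20.8) of the Trav UMIs of Zbtb16 carriers and 12.6% (10.4 to 15.1) of those of the other DN cells. It was the leading segment in both classes.

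In the IR libraries few cells could show both genes. A Zbtb16 UMI was found in 7 of 35 Trav11 carriers in CD4 cells (20%, 8.44 to 36.9), against 8.80% of the cells without Trav11 and 5.25% (4.02 to 6.72) of those with another Trav segment only. In DN cells it was found in 2 of 25 (8.0%, 0.984 to 26.0), against 11.2% of the rest. No CD8 cell in either condition had both genes. After thinning to 700 UMIs, 4 of 20 Trav11 carriers in control CD4 and 3 of 41 in control DN cells had both, which is 20% (5.73 to 43.7) against 10.3% of the rest and 7.32% (1.54 to 19.9) against 14.0%, so a difference between Trav11 carriers and other cells was not detectable at that depth in either library, and the DN shares were in the opposite order.

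**Figure D3:**
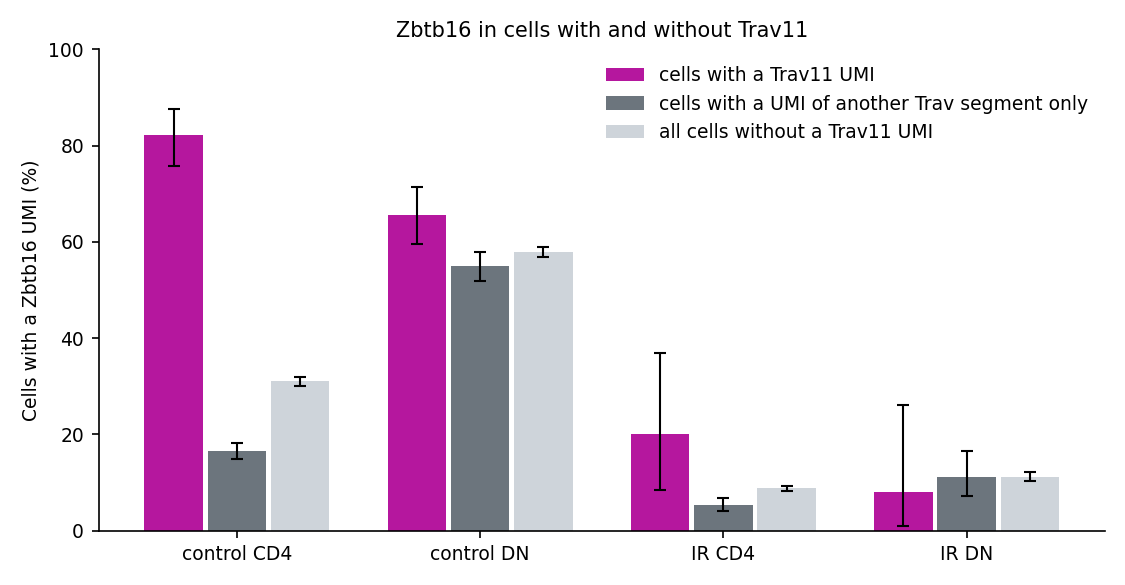
Percent of cells with a Zbtb16 UMI among cells with a Trav11 UMI (purple), cells with a UMI of another Trav segment only (dark grey) and all cells without a Trav11 UMI (light grey), in the CD4 and DN libraries. Error bars are exact 95% Clopper-Pearson intervals. In control CD4 the purple bar stands at 82.3% against 16.5% and 31.04%; in control DN the bars lie between 54.9% and 65.6%.

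Traj18 bore on the identity of the Trav11 carriers, since it was not used to choose them. In control CD4 cells Traj18 was at 105 CPM in Trav11 carriers and 45.6 CPM in the other cells (log2 1.20, 0.92 to 1.47). The control DN levels were 138 and 60.9 CPM (log2 1.18, 0.99 to 1.36). Among cells with both Zbtb16 and Trav11, 44.4% had a Traj18 UMI in control CD4 and 53.5% in control DN cells. Of control CD4 Zbtb16 carriers 24.1% had one, and 18.2% of the other control CD4 cells did. After thinning to 700 UMIs these were 3.38% and 3.45%. The level of Traj18, which is scaled to depth, was 51.9 CPM in these carriers and 44.0 CPM in the others (log2 0.24, 0.12 to 0.36), a small difference that the thinned shares did not show. In control DN cells 32.7% of Zbtb16 carriers and 25.6% of the others had one, or 4.74% and 3.92% after thinning. Traj33, the joining segment of the MAIT receptor, had 1 UMI in control CD4 Trav11 carriers (0.888 CPM) against 477 in the other cells (9.65 CPM), and too few UMIs in control DN cells to compare.

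The β segments of Trav11 carriers leaned towards those known from iNKT cells in CD4 cells, within wide intervals. In control CD4 cells 54 of the 175 Trav11 carriers had any Trbv UMI, 69 in all. Of these, Trbv13-2 made up 24.6% (15.1 to 36.5), against 14.7% (13.4 to 16.0) in cells without Trav11. Trbv13-1 was at 7.25% against 6.06%, Trbv13-3 at 5.80% against 3.70%, Trbv29 at 11.6% against 8.04% and Trbv1 at 10.1% against 7.79%. All 5 of these segments were thus higher in the carriers, but the interval of each took in the value of the other cells except that of Trbv13-2. Even for Trbv13-2 the 2 intervals overlapped. They count UMIs as independent, although the 69 UMIs came from 54 cells. Trbv12-2, which is not among them, was also higher, at 26.1% against 16.1%. After thinning, when 20 carriers remained, none of their Trbv UMIs came from Trbv13-2. Trbv2 and Trbv3 were at 2.90% each in carriers and at 6.70% and 6.59% in the other cells.

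Zbtb16 carriers without a Trav11 UMI, which are more numerous, showed most of these β segments at higher shares, with narrower intervals. In control CD4 cells they held 937 Trbv UMIs, of which Trbv13-2 made up 25.1% (22.3 to 28.0), against 9.53% (8.24 to 10.9) of the 1900 Trbv UMIs of cells with neither gene. Trbv29 was at 15.6% (13.3 to 18.1) against 4.32% (3.45 to 5.33), and Trbv1 at 10.4% (8.48 to 12.5) against 6.53% (5.46 to 7.73). Trbv13-1 was at 8.64% (6.92 to 10.6) against 4.79% (3.87 to 5.85), while for Trbv13-3, at 4.59% (3.34 to 6.13) against 3.26% (2.51 to 4.16), the intervals overlapped. Trbv12-2 was at 20.8% against 13.8%. Trbv3 went the other way, at 1.49% (0.819 to 2.49) against 9.11% (7.85 to 10.5), as did Trbv2, at 1.07% against 9.47%.

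Among control DN cells 92 Trav11 carriers had a Trbv UMI, 126 in all. Trbv13-2 was at 24.6% (17.4 to 33.1) in carriers and 21.1% (19.9 to 22.2) in the other cells. Trbv1 was at 16.7% (10.6 to 24.3) against 9.97%, and Trbv29 at 7.94% against 10.7%. Trbv13-1 was at 7.94% against 8.15% and Trbv13-3 at 7.94% against 5.42%. Of these 5 segments, only Trbv1 had an interval in the carriers that left out the value of the other DN cells, again with UMIs counted as independent. None of the 126 UMIs came from Trbv3, which made up 1.72% in the other cells.

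**Figure D4:**
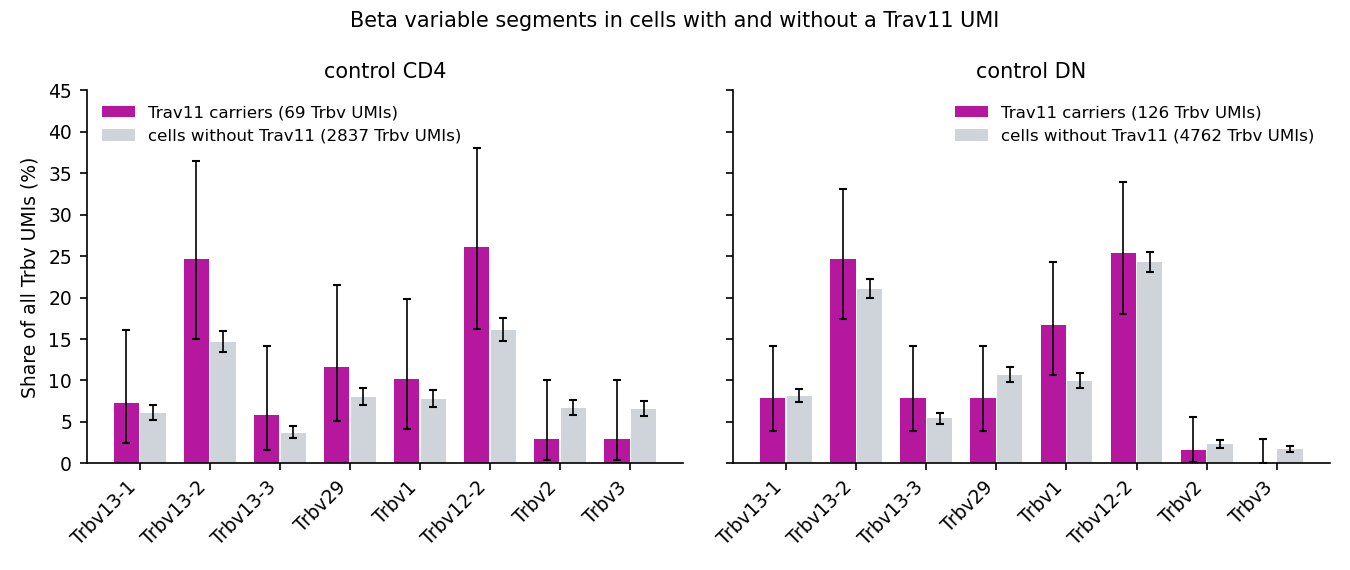
Share of all Trbv UMIs taken by 8 β variable segments in Trav11 carriers (purple) and in cells without a Trav11 UMI (grey) of control CD4 (left) and control DN (right). Error bars are exact 95% Clopper-Pearson intervals. Trbv13-2 is at 24.6% in the carriers of both libraries and at 14.7% and 21.1% in the other cells.

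The genes that went with Zbtb16 were examined within a library, by comparing the summed counts of Zbtb16 carriers with those of the other cells. A gene was counted when it reached 50 CPM in the higher class and differed at least 2-fold. Carriers were somewhat deeper than the others in each library, with median UMIs of 7848 against 6610 in control CD4, 8829 against 7722 in control DN, 2378 against 2350 in IR CD4 and 1576 against 1439 in IR DN. The other cells include cells whose Zbtb16 molecules were not captured, so the contrasts are between detected and not detected. Intervals count UMIs as independent, although a few cells can give many UMIs of 1 gene.

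In control CD4 cells Zbtb16 carriers had more Il4 and more RNA of several natural killer receptors than the other cells, and less of most naive T cell genes tested. An Il4 UMI was found in 40.3% of carriers and 5.95% of the others, and a Klrb1c UMI in 26.4% and 4.72%. After thinning to 700 UMIs these were 12.7% and 3.48% for Il4 and 6.13% and 2.62% for Klrb1c. Of 4385 genes 67 (1.53%) were higher in carriers and 73 (1.66%) lower. The higher genes numbered 44 with at least 2 Zbtb16 UMIs, 30 after thinning and 147 at a minimum of 10 CPM. The cytokine gene Il4 was at 214 CPM in carriers and 24.3 CPM in the others (log2 3.13, 3.02 to 3.25). The chemokine gene Ccl1 had the largest ratio, at 55.8 against 5.90 CPM (log2 3.24, 3.01 to 3.47). Slc35f3, a member of a solute carrier family, followed at 73.2 against 9.48 CPM. Tcrg-C4, a constant gene of the γ chain, was at 75.1 against 11.9 CPM, and Cap2, which encodes an actin-binding protein, at 60.8 against 9.92 CPM. The largest ratios in the other direction belonged to Ccr7, the lymph node homing receptor, at 2.68 CPM in carriers and 50.3 CPM in the others (log2 -4.23, -4.67 to -3.83), and to St8sia6, Igfbp4, Actn1 and Cmah.

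By list, the naive or recirculating genes were lower for 5 of 7 tested in control CD4 carriers (Ccr7, Igfbp4, S1pr1, Klf2 and Tcf7) and higher for 1 (Satb1), with a median log2 ratio of -1.71 beside -0.01 for all genes. Of the genes of the NKT1 type, which produces interferon γ, 4 of 10 were higher and 0 lower. These were Klrb1c, which encodes NK1.1 (98.6 against 19.3 CPM), Klrk1, which encodes NKG2D (239.9 against 64.0 CPM), Klrd1 and the chemokine gene Xcl1. Tbx21, the NKT1 factor T-bet, was at 359.9 against 262 CPM, under the 2-fold limit. Of the NKT2 genes, the IL-4 producing type, Il4 and Plac8 were higher and Ccr7 and Slamf6 lower among 9 tested. The NKT2 factor Gata3 was at 183 against 168 CPM. Of the NKT17 genes 1 of 14 was testable, and it stayed within 2-fold. Of the innate-like surface genes 3 of 13 were higher (Klrb1c, Klrk1, Klrd1) and 2 lower (Il7r and Cd5). None of the 8 tissue-resident genes tested passed in either direction. Cxcr6, which guides cells into tissue, was at 1113 against 622 CPM.

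Carriers in the control CD4 library also had less Cd4, at 115 against 266 CPM (log2 -1.21, -1.28 to -1.14), while Cd3e was equal at 598 and 602 CPM. Of 5 regulatory T genes tested, 1 was higher, Il2ra at 75.1 against 28.7 CPM, and 0 were lower. Foxp3, at 2.35 against 27.3 CPM, was below the level needed for a call. The 3 γ chain genes tested (Tcrg-C4, Tcrg-C2 and Trgv2) were all higher, and single values are uncertain because these genes are similar in sequence. Trdc had 11 UMIs in carriers and 151 in the others, so the γ chain genes were higher where the δ chain gene was lower. Of the defining genes of other cells, 1 of 1 B cell and 1 of 1 myeloid gene tested stayed within 2-fold, and none of the NK cell genes reached 50 CPM in either class. Of 3 innate lymphoid genes tested, Lmo4 was higher and Il7r lower.

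In control DN cells Zbtb16 carriers and the other cells were much more alike. Of 4324 genes 3 (0.0694%) were higher in carriers and 11 (0.254%) lower. The higher genes numbered 6 with at least 2 Zbtb16 UMIs, 7 after thinning and 18 at a minimum of 10 CPM. The higher genes were Ccl1 (61.3 against 5.58 CPM, log2 3.46, 3.20 to 3.73), Il4 (152 against 57.6 CPM, log2 1.40, 1.31 to 1.49) and Ctla4, which encodes an inhibitory receptor (51.2 against 22.7 CPM). The largest ratios among lower genes belonged to Klra7, a Ly49 receptor gene (49.9 against 198 CPM), Lrmda, the granzyme gene Gzma (41.6 against 131 CPM), Cd7 and Tyrobp, an adaptor of natural killer receptors (29.4 against 85.1 CPM). Values of single Klra genes are uncertain since the family is similar in sequence. NKT1 genes were lower for 3 of 14 tested (Gzma, Fcer1g and Klra5) and higher for 0, with a median log2 ratio of -0.55. None of the 13 innate-like surface genes tested passed the limit. Klrb1c was at 178 CPM in carriers and 261 CPM in the others (log2 -0.55, -0.61 to -0.50). Its order in DN cells was thus the reverse of that in CD4 cells.

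In IR CD4 cells Tcrg-C4 and Slc35f3 were again among the 5 highest genes of Zbtb16 carriers, and naive T cell genes were again lower. Of 4088 genes 122 (2.98%) were higher in IR CD4 carriers and 87 (2.13%) lower. Both counts rose at a minimum of 10 CPM, and the higher count rose with at least 2 Zbtb16 UMIs, as given at the end. The highest ratios belonged to Pde7b (50.4 against 9.93 CPM, log2 2.34, 1.93 to 2.76), Tcrg-C4, Csf2, Slc35f3 and Setbp1. Il4 was at 262 against 73.6 CPM (log2 1.83, 1.66 to 2.00). The naive or recirculating genes were lower for 7 of 9 and higher for 0, with a median log2 ratio of -2.80, and Klf2 was at 720 against 2219 CPM. Gzma had 1 UMI in carriers and 1086 in the others, and Olfr1369-ps1, Actn1, Nsg2 and Apod followed among the lower genes. NKT1 genes were higher for 3 of 12 (Klrk1, Xcl1 and Klrb1c) and lower for 1 (Gzma). NKT2 genes were higher for 2 of 9 (Il4 and Plac8) and lower for 3 (Ccr7, Izumo1r and Slamf6). NKT17 genes were higher for 1 of 3 (Tmem176b). Tissue-resident genes were higher for 2 of 7, Cxcr6 (548 against 252 CPM) and Itga1 (93.8 against 44.6 CPM), and lower for 0. Traj18 was also higher, at 54.3 against 24.2 CPM (log2 1.17, 0.80 to 1.51). Of 3 innate lymphoid genes tested, Lmo4 was higher, at 297 against 134 CPM, and 0 were lower.

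In IR DN cells 11 of 4121 genes (0.267%) were higher in carriers and 22 (0.534%) lower. Both the size and the balance of these counts depended on the setting, with 459 higher and 224 lower when at least 2 Zbtb16 UMIs were asked for, and 94 and 64 after thinning. The higher ones were led by Acod1 (31 UMIs in carriers and 66 in the others), Dgkh, Parp9, Ramp3 and Utp14a, each with at most 54 UMIs in carriers. The lower ones were led by Ccl4, Klra7, Gzma, Tyrobp and Hspa1a, and 3 of 13 NKT1 genes were lower (Gzma, Fcer1g and Ccl5). Klra7, Gzma and Tyrobp were thus among the leading lower genes of DN carriers in both conditions. Il4 was at 173 against 132 CPM (log2 0.39, 0.06 to 0.71), below 2-fold. Il13, a further type 2 cytokine gene, had 9 UMIs in 460 carriers and 6 in 3655 other cells.

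**Figure D5:**
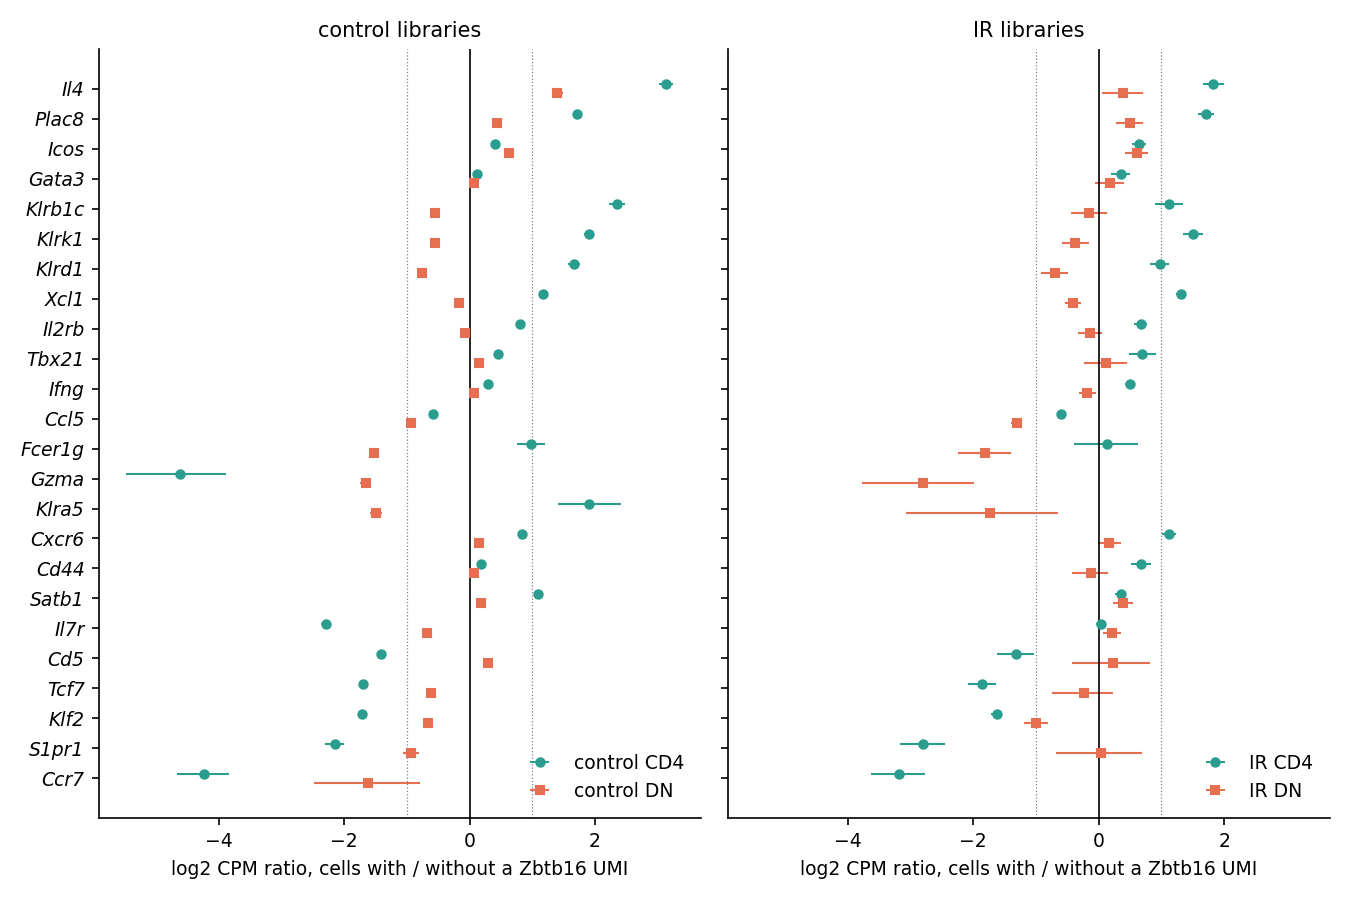
Log2 ratio of CPM in Zbtb16 carriers over the other cells for 24 genes of the NKT, surface and naive lists, in control (left) and IR (right) libraries of CD4 (circles) and DN (squares) cells. Bars are exact 95% intervals of counting error, dotted lines mark 2-fold, and points with 3 or fewer UMIs in either class are left out. Il4 lies right of 0 in all 4 libraries, while Klrb1c lies at 2.35 in control CD4 and -0.55 in control DN.

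Cells with more Zbtb16 UMIs had more Il4 in both control libraries. In CD4 cells Il4 was at 24.3 CPM in cells with 0 Zbtb16 UMIs, 149.9 CPM with 1, 169 CPM with 2 to 4 and 354 CPM with 5 or more. In DN cells the classes held 57.6, 99.9, 132 and 282 CPM. Icos, a costimulatory receptor gene, went from 307 to 347, 411 and 468 CPM in CD4 cells and from 242 to 329, 368 and 474 CPM in DN cells. Klrb1c did not follow: it was at 19.3, 114, 104 and 74.7 CPM in CD4 cells and fell from 261 to 220, 181 and 99.9 CPM in DN cells. Cells with more Zbtb16 UMIs were also deeper, with a median of 5155 retained UMIs in the lowest and 7797 in the highest class of CD4 cells, and 6034 and 8461 in DN cells. After thinning all cells to 700 UMIs, Il4 was at 62.0, 236 and 369.8 CPM in control CD4 cells with 0, 1 and 2 to 4 Zbtb16 UMIs, and at 102, 185 and 334 CPM in control DN cells. Klrb1c was at 228, 169.9 and 62.7 CPM in the thinned DN cells, so both DN orders held at equal depth. In the thinned CD4 cells Klrb1c was at 44.2, 100.0 and 123 CPM, unlike the order without thinning. In IR CD4 cells thinned Il4 was at 78.8, 268 and 374 CPM in the same classes. In IR DN cells it was at 146, 134 and 95.2 CPM. There the last class held 30 cells of 700 UMIs each, which is too few to give an order.

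Trav11 carriers, chosen without regard to Zbtb16, gave a related picture in CD4 cells. Of 4409 genes 13 (0.295%) were higher in control CD4 Trav11 carriers and 41 (0.93%) lower. Both counts rose several-fold at a minimum of 10 CPM, as given at the end. Il4 had the largest ratio, at 467 against 85.8 CPM (log2 2.44, 2.31 to 2.58), followed by Slc35f3, the stress factor gene Atf3, Tcrg-C4 and Traj18. Xcl1 (829 against 401 CPM) and Ifng, the interferon γ gene (904 against 440 CPM), were the 2 of 10 NKT1 genes that passed. The lower genes were led by March3, Fam169b, St8sia1, Cd74 and Cmah, and included 3 of the 5 naive or recirculating genes tested (S1pr1, Klf2 and Tcf7). Of 5 regulatory T genes tested, Il2ra was higher (94.1 against 44.7 CPM) and Ctla4 lower (33.8 against 138 CPM). Cd4 was at 124 against 213 CPM, under 2-fold.

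In control DN cells 4 of 4349 genes (0.092%) were higher in Trav11 carriers and 6 (0.138%) lower, and these counts too rose several-fold at a minimum of 10 CPM. The higher genes were Smpdl3b (63.8 against 19.97 CPM), the histone gene Hist1h1b, Gm13822 and Traj18. Gm13822 is annotated as antisense, and whether strand was used in counting is not given in the sources used here. Klra7, Ccl4, Gzma, Nr4a2 and Aff3 led the lower genes. Il4 was at 169 against 115 CPM (log2 0.56, 0.39 to 0.72).

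The 4 classes set by the 2 genes show what each added. In control CD4 cells Il4 was at 504 CPM in the 144 cells with both genes, 256 CPM in the 31 with Trav11 only, 198 CPM in the 2816 with Zbtb16 only and 23.1 CPM in the 6257 with neither. Ifng was at 990.5, 411, 485 and 415 CPM in the same order, although an Ifng UMI was found in 63.9% of the cells with both genes and in 71.2% of all Zbtb16 carriers, so its level in the former came from more UMIs per positive cell. Ccr7 had 2, 0, 48 and 1603 UMIs. In control DN cells Il4 was at 203 CPM in the 172 cells with both genes, 94.9 CPM in the 90 with Trav11 only, 150.2 CPM in the 4997 with Zbtb16 only and 56.6 CPM in the 3649 with neither. Gzma was at 2.31, 71.6, 43.0 and 133 CPM there, and Fcer1g, an adaptor of natural killer receptors, at 93.3, 211, 113 and 327 CPM. Klrk1 was at 539.7, 858, 526 and 769 CPM, so in these 3 genes both classes without a Zbtb16 UMI were above both classes with one.

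Few NKT17 genes reached a level that could be compared, with 1 of 14 testable in control DN cells. Il23r, a receptor gene of this type, had 384 UMIs in control DN Zbtb16 carriers (10.1 CPM) and 24 in the others (1.05 CPM). Il17a had 0 UMIs in both classes.

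Over the 6 libraries, the profiles nearest to that of Zbtb16 were those of Il4, Ly6c1, Slc35f3, Tmem273 and Kcnq5, by the root mean square difference of centred log2(CPM + 1) over 9769 genes at 10 CPM or more in some library. The differences ran from 0.68 for Il4 to 1.04 for Kcnq5. Il4 was at 94.3, 0.154 and 116 CPM in control CD4, CD8 and DN cells and at 92.4, 0 and 137 CPM in the IR cells. Kcnq5, a potassium channel gene, was at 1402, 115 and 2371 CPM in the control and at 372, 46.2 and 813 CPM in the IR cells. The profiles nearest to Trav11 were those of Ern1, Itgb3, Gm41414, Ckb and Sulf2, with differences of 0.27 to 0.28. The pseudocount of 1 flattens a gene as low as Trav11, so these neighbours have much smaller splits between subsets. Ern1 was at 100.5, 31.2 and 118 CPM in control CD4, CD8 and DN cells. This is a description over 6 points that share depth and software by condition.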

How the data were processed

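The authors deposited matrices of raw UMI counts per gene and barcode, made with Cell Ranger and the mm10 genome from 10x 3′ libraries. The submitters' notes name version 6.0.1, while the file headers name 5.0.1 for the control libraries. The deposited counts were used as they stand. From 54039 barcodes, those with at least 500 features and at most 20% mitochondrial UMIs were kept, and the 5% with the most UMIs per library and barcodes of other cell types without a Cd3 UMI were left out. No doublet caller was run. Mitochondrial, ribosomal and Malat1 features (104) were left out of the totals behind CPM.

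Each group is 1 library, so no test was made. CPM carry exact Poisson, shares Clopper-Pearson and ratios exact conditional 95% intervals. A gene differed when it reached 2-fold, with at least 10 CPM between libraries or 50 CPM between carriers and other cells. The text names both genes, genes of 23 fixed lists, the 5 largest ratios in each direction per comparison of carriers and the 5 nearest profiles. Both genes and the lists were chosen with earlier results of these data known. The comparison with other Trav segments, the exon sequences and a few further genes (Trac, Il23r and Il13) were chosen after values were seen. The steps were tested on simulated data. Python 3.11.15, numpy 2.4.6, scipy 1.17.1, pandas 2.3.3 and edgeR 4.0.16 (TMM scaling as an alternative) were used. Alternatives covered scaling, cell filters, thinning, the UMI minimum and the CPM minimum. A few listed genes are not reported here.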

Additional observations from a re-analysis of the deposited data

Results flagged for a closer look

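Zbtb16 was also found in barcodes that the comparisons did not use. The 5% of barcodes with the most UMIs held it at 304 CPM in control CD4 and 325 CPM in control DN cells, above the levels in the kept cells of those libraries. In IR CD4 cells the order was the opposite, at 70.4 CPM against 76.8 CPM, with overlapping intervals. In the IR CD8 library, barcodes of other cell types held it at 55.4 CPM, from 4 UMIs. This was not particular to that library, since such barcodes held 37.1 to 79.2 CPM over the 6 libraries, from 1 to 7 UMIs each.

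For several genes the ratio of Zbtb16 carriers over other cells went in opposite directions in CD4 and DN cells. This difference was not tested, since each subset is 1 library. The log2 ratio in control CD4 minus that in control DN cells was 2.91 for Klrb1c, 2.46 for Klrk1, 2.42 for Klrd1, 1.33 for Xcl1, -1.71 for Cd5 and -2.14 for Ctla4. In the IR group it was 1.87 for Klrk1, 1.73 for Xcl1 and -2.14 for Ctla4.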

How the results depend on the processing

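None of the 216 alternatives turned the sign of a ratio that reached 2-fold, but sizes moved, and some smaller ratios and orders between classes of cells turned. Centring by intronic length took the log2 ratio of IR over control from 0.32 to -0.03 for Trav11 in DN cells and from -0.35 to 0.47 for Zbtb16 in CD8 cells, and thinning took them to -0.03 and 0.36. No replicate could be left out, as each group is 1 library. The log2 ratio of Zbtb16 in IR over control CD4 cells was -1.75 with the removed features kept in the total, -1.52 with the deepest barcodes kept, -1.51 without cell filters and -0.28 when centred by intronic length. In DN cells it was -1.22 with the removed features kept, -1.18 with TMM scaling and -0.32 when centred. The log2 ratio of DN over CD4 for Zbtb16 was 0.30 with the deepest barcodes kept and 0.29 without cell filters in the control group, and 0.87 with the removed features kept and 0.85 after thinning in the IR group. That of Trav11 in the control group was 1.12 after thinning. The share of Trav11 carriers with Zbtb16 was 20% after thinning and 61.7% with at least 2 Zbtb16 UMIs in control CD4, and 7.32% and 43.1% in control DN cells. Thinned, the control DN share lay below the 14.0% of cells without Trav11, where unthinned it lay above. Thinning also turned the order of Klrb1c over carriers in control CD4 cells. The order of Il4 over Zbtb16 classes in IR DN cells could not be judged after thinning, when the last class held 30 cells. After thinning Trbv13-2 had 0% of the Trbv UMIs of Trav11 carriers in both control libraries, where few carriers remained.

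Counts of genes that differed in carriers depended on the minimum level, the UMI minimum and the depth. At a minimum of 10 CPM, 147 were higher and 181 lower in control CD4, 18 and 41 in control DN, 319 and 244 in IR CD4 and 258 and 293 in IR DN cells. For Trav11 they were 76 and 195 in control CD4 and 26 and 47 in control DN cells. With at least 2 Zbtb16 UMIs the higher genes numbered 44, 6, 210 and 459 in the same order of libraries, and the lower genes in IR DN cells 224. After thinning 30 were higher in control CD4, 7 in control DN and 94 in IR DN cells, and 64 were lower in IR DN cells. With the deepest barcodes kept, 6 were higher in control DN and 4 in IR DN cells. The causes were not tested. Trav11 carriers were not compared after thinning, since under 50 remained. Depth limits what can be said of the IR libraries and of Trav11, beside the limits from intronic length and from Trav11d.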
